A study of Mus musculus with 12 samples.

Results

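Costimulatory and innate immune genes were followed in sorted bone marrow cells of irradiated and non-irradiated mice through 6 members: Cd86, Cd28, Mpeg1, Gbp2, Il18 and Il17re. They are the rows with these symbols in the authors' deposited table of selected probe sets, and 6 of the 325 genes that this table names through probe sets of 1 gene. Each member had 1 named probe set, among 22626 on each array. Any other probe set of these genes that was not selected has no name here and was not analysed. The authors selected that table on the same comparison, by a fold of 2 or more together with a p of less than 0.05 before any adjustment. The differences between irradiated and non-irradiated arrays given for the members are therefore descriptions of what chose them.

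The arrays measured RNA of KSL cells, which were sorted from bone marrow as Kit-positive, Sca-1-positive and lineage-negative, a population that contains hematopoietic stem cells together with early progenitors. All mice were C57Bl/6 and were raised to 10 weeks of age. The control group was not irradiated (0 cGy, 6 arrays), and the other group received 550 cGy from a cesium irradiator (6 arrays), with cells taken at day 14 per the series' design text. The study asked what distinguishes KSL cells that regenerate after irradiation from KSL cells at steady state. No label says whether an array holds RNA of 1 mouse or of several, nor whether different arrays hold different mice. The errors and p-values therefore cover variation among these arrays only, and part or all of it may be technical.

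CD86 and CD28 are the ligand and the receptor of a costimulatory pair. CD86 is carried by antigen-presenting cells, and its binding to CD28 on T cells gives the second signal of T cell activation; in the mouse it has also been described on stem cells with lymphoid potential. The other members belong to innate defence: Mpeg1 encodes perforin-2, a pore-forming protein of phagocytes, Gbp2 an interferon-inducible GTPase, Il18 a cytokine of the interleukin-1 family that is released after cleavage by caspase-1, and Il17re a receptor chain for interleukin-17C. Interferons and inflammatory cytokines act on stem cells directly as well as on mature immune cells.

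RefSeq promoter windows (GRCm38.p6, 250 bases before to 50 after the annotated start) were given for 4 of the 6 members, Mpeg1, Gbp2, Il18 and Il17re. Those of Gbp2, the interferon-inducible member, and of Il17re, the member whose groups did not overlap, are shown. Capitals mark the motif matches, 5′ to 3′ on the plus strand of chr3:142620413-142620712 and of chr6:113458521-113458820.
Gbp2: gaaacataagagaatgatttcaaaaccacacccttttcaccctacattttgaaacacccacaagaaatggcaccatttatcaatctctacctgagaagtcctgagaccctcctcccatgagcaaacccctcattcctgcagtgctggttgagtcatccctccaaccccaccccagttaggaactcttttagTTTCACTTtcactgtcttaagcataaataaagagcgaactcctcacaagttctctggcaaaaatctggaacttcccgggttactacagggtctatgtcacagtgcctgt
Il17re: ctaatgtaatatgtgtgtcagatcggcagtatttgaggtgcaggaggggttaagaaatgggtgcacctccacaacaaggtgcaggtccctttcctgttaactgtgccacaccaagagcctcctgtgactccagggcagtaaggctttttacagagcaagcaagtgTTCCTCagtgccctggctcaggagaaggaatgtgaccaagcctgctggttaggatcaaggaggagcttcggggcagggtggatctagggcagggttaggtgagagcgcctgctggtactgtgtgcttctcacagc
Each window was searched on both strands for 3 motifs. The core motif of interferon regulatory factors, searched as AANNGAAA, had 1 match in the Gbp2 window, on the minus strand with its first plus-strand base at position -59 from the start. It also had 2 matches in the Mpeg1 window, 1 in that of Il18 and 0 in that of Il17re, and 23.9% of the 32851 windows in the table hold at least 1. The PU.1 motif GAGGAA had 1 match in the Il17re window, on the minus strand from position -85, and was in 28.3% of all windows. The interferon-gamma activated site TTCNNNGAA, found in 8.30% of all windows, was in none of the 4. No match of one motif overlapped that of another. A match describes letters in this window and does not show a bound site.

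Values are log2 expression values as deposited, with array medians of 6.94 to 7.01. The precision is limited by the number of arrays, with a median SE of 0.13 for a log2 difference between the groups over all probe sets. The mean of every member was lower in the irradiated group, by 2.02-fold to 2.60-fold. In limma, 4 of the 6 passed a Benjamini-Hochberg adjusted p of 0.05 as lower (Cd86, Gbp2, Il18 and Il17re), beside 5.47% of all probe sets called lower, and Mpeg1 and Cd28 missed it. Mpeg1 was called as well with the replicate set as a term, with array weights and with the trended and robust prior. It was also called without the dimmest 40% of probe sets and in replicates 4 to 6 alone, and Cd28 was called with array weights. In the other direction, Gbp2 and Il18 lost their calls by analysis of variance and in replicates 1 to 3 alone. Cd86 lost its call in replicates 1 to 3 alone. The 1238 lower probe sets behind that percentage numbered 773 without irradiated replicate 1. Calls in the higher direction took 5.87% of probe sets, 1329 in number, and with each array's median subtracted the split was 1765 higher and 1081 lower. The higher calls numbered 837 without control replicate 1 and 740, 830 and 769 without irradiated replicates 1, 5 and 6. Only Il17re had no overlap between the groups, an arrangement seen in 2.80% of all probe sets in the lower direction. The median log2 difference was -1.16 over the 6 members and 0.01 over all probe sets, where the table's fold limit fixes how small a member's difference can be. In RNA of sorted populations, fewer cells of a type and less RNA per cell cannot be told apart.

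**Figure D1:**
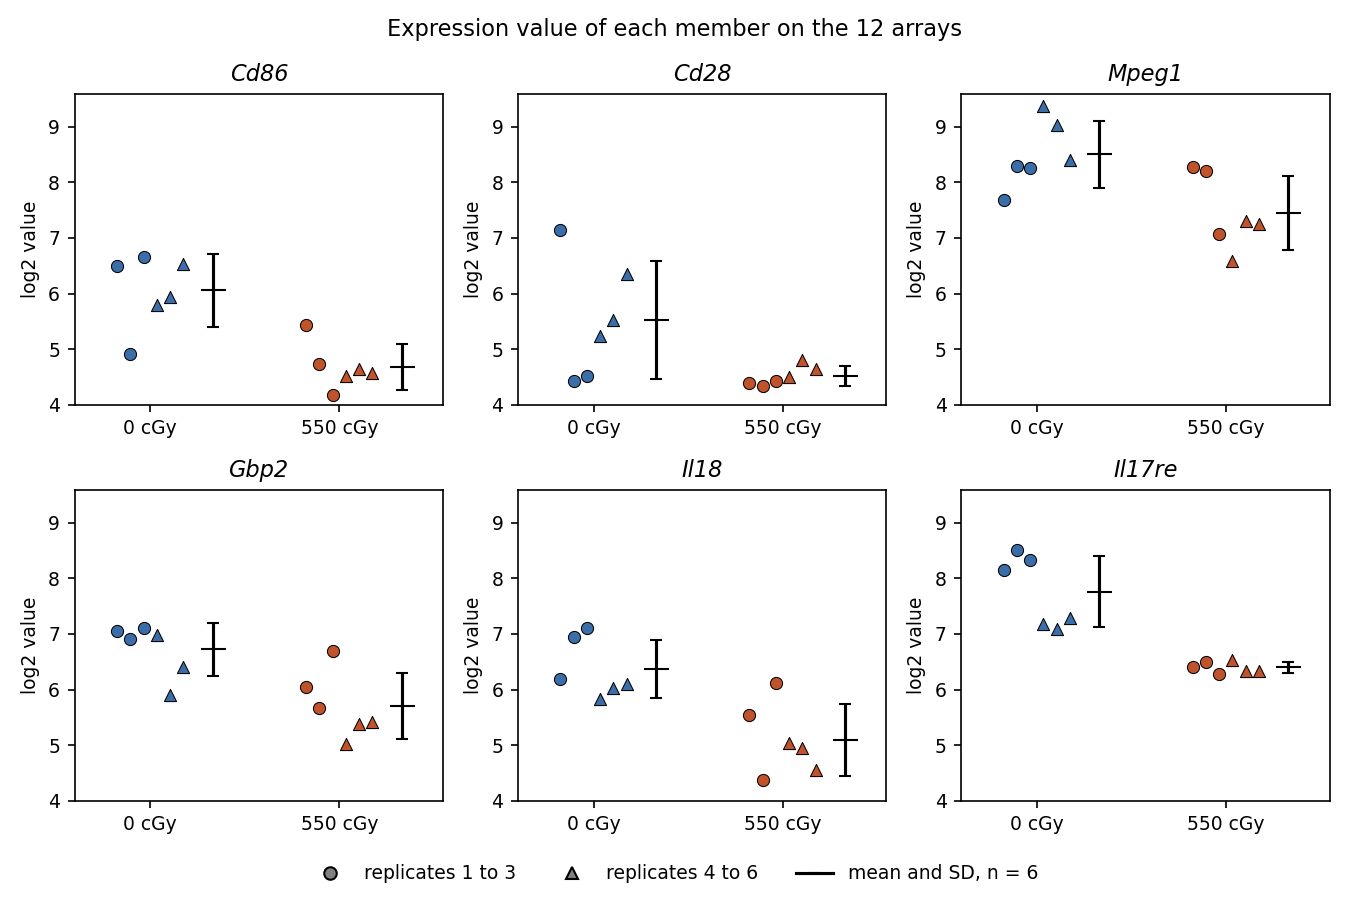
Log2 value (y axis) of the 6 members on each of the 12 arrays, by group (x axis). Circles are replicates 1 to 3 and triangles replicates 4 to 6 of a group, and the bars give the mean and SD over 6 arrays. The irradiated Il17re arrays lie between 6.28 and 6.53, below all control arrays, and the 2 lowest Cd28 control arrays lie within the range of the irradiated ones.

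Cd86, the costimulatory ligand, had control values with a lowest of 4.92, a median of 6.22 and a highest of 6.66. The irradiated values had a lowest of 4.18, a median of 4.61 and a highest of 5.43. In all, 5 control arrays lay above every irradiated array, and the remaining one, control replicate 2, lay among the irradiated values. The means were 6.06 ± 0.66 and 4.68 ± 0.41 (SD, n = 6 per group), a log2 difference of -1.38 (SE 0.28) or 2.60-fold. The difference was -1.25 (SE 0.43) in replicates 1 to 3 and -1.51 (SE 0.43) in replicates 4 to 6.

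Cd28, the receptor of CD86 on T cells, was the member with the widest control group. Its 6 control values were 7.15, 4.43, 4.51, 5.23, 5.52 and 6.35 for replicates 1 to 6, and its irradiated values had a lowest of 4.33, a median of 4.46 and a highest of 4.80. Control replicates 2 and 3 were as low as the irradiated arrays, and the other 4 control arrays were above all of them. The SD was 1.06 among control and 0.17 among irradiated arrays, a ratio of 6.13. Cd28 was among the dimmest 40% of probe sets, and whether its narrow irradiated range lies above background is not known. The log2 difference of the means, 5.53 and 4.51, was -1.02 (SE 0.39), and it was -0.69 without control replicate 1 and -1.24 without control replicate 2. Cd28 stood just inside both limits of the authors' deposited table, with a fold of 2.02 and a p of 0.0430. Gbp2, with 2.03-fold in that table, was the next closest member to the fold limit. Of the lower probe sets of the table, 59 of 276 were under 2.1-fold. The smallest fold among them was 2.0005 and the largest outside the table, at an unadjusted p under 0.05, was 1.9990.

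Mpeg1, the perforin-2 gene, had control values of 7.69, 8.30, 8.25, 9.37, 9.03 and 8.41 in replicates 1 to 6. The irradiated values were 8.27, 8.21, 7.07, 6.59, 7.31 and 7.25 in the same order of numbers. Irradiated replicates 1 and 2 lay within the control range, and the other 4 irradiated arrays lay below it. The means were 8.51 ± 0.60 and 7.45 ± 0.66 (SD, n = 6 per group), a log2 difference of -1.06 (SE 0.32). Mpeg1 was called lower in limma when control replicate 1, irradiated replicate 1 or irradiated replicate 2 was left out, with log2 differences of -1.22, -1.22 and -1.21.

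Gbp2, the interferon-inducible GTPase gene whose promoter window is printed above, had control values with a lowest of 5.89, a median of 6.94 and a highest of 7.10. Its irradiated values had a lowest of 5.02, a median of 5.54 and a highest of 6.69. Control replicates 5 and 6 and irradiated replicates 1 and 3 made up the overlap. The log2 difference between the means of 6.72 ± 0.48 and 5.70 ± 0.59 (SD, n = 6 per group) was -1.02 (SE 0.28). Its call in limma ended when control replicate 1, 2, 3 or 4 or irradiated replicate 2, 4, 5 or 6 was left out, with log2 differences of -1.01 to -0.88. The identifier of its probe set ends in _x_at, the suffix that Affymetrix naming gives to sets with probes that can bind other transcripts, so signal of related genes in it cannot be separated here.

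Il18 had control values with a lowest of 5.82, a median of 6.15 and a highest of 7.10, and irradiated values with a lowest of 4.37, a median of 4.99 and a highest of 6.11. Irradiated replicate 3 alone reached the control range, and the other 5 irradiated arrays lay below it. The means of 6.37 ± 0.52 and 5.09 ± 0.64 (SD, n = 6 per group) differed by -1.27 (SE 0.30), or 2.42-fold. The difference was -1.40 (SE 0.37) in replicates 1 to 3 and -1.14 (SE 0.37) in replicates 4 to 6.

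Il17re had control values of 8.15, 8.52, 8.34, 7.17, 7.09 and 7.29 in replicates 1 to 6, and irradiated values of 6.41, 6.49, 6.28, 6.53, 6.33 and 6.34. The controls formed 2 separate levels by replicate number, and the irradiated arrays formed 1 narrow level below both. Their SD was 0.64 among control and 0.10 among irradiated arrays, a ratio of 6.38. The group means differed by -1.36 (SE 0.24), or 2.57-fold. Its probe set ends in _s_at, the Affymetrix suffix for probes shared by several transcripts.

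Replicates 1 to 3 and replicates 4 to 6 had been found to stand apart across all probe sets in an earlier analysis of these arrays, and the labels name no batch. Both sets hold 3 arrays of each group, so the difference between irradiated and control arrays was compared between the sets. The pooled difference does not fix this contrast. The split itself was noticed in these same arrays and is no label, so the p-values of this comparison are a description. Il17re was the member that passed, with -1.94 (SE 0.12, 3.84-fold) in replicates 1 to 3 and -0.78 (SE 0.12, 1.72-fold) in replicates 4 to 6. The change in replicates 4 to 6 minus that in replicates 1 to 3 was 1.16 (SE 0.17, limma adjusted p = 0.0354 over all probe sets). That is 1 of 6 members against 0.133% of all probe sets. The members were selected for a fold of 2 or more and all probe sets were not, so these shares are not like for like. Control arrays 1 to 3 exceeded control arrays 4 to 6 by 1.15, whereas the irradiated arrays of the sets differed by 0.01. The call ended in 9 of the 12 fits that left out 1 array, at adjusted p of 0.0543 to 0.115 (control replicates 3 to 6 and irradiated replicates 1, 2, 4, 5 and 6), while the difference stayed between 1.07 and 1.25. Across all probe sets, 30 passed this comparison. That count lay between 4 and 14 without any one of control replicates 4 to 6 or irradiated replicates 1, 2, 4, 5 and 6, and was 58 without control replicate 2 and 129 without irradiated replicate 3.

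Mpeg1 had the opposite order of changes, -0.23 (SE 0.35, 1.17-fold lower) in replicates 1 to 3 and -1.88 (SE 0.35, 3.69-fold lower) in replicates 4 to 6. The difference of -1.65 (SE 0.49) missed the threshold (limma adjusted p = 0.237, and 0.0660 to 0.432 over the alternatives run). Its control arrays were higher in replicates 4 to 6 than in replicates 1 to 3, by 0.86, and its irradiated arrays were lower, by 0.80. Cd86, Cd28, Gbp2 and Il18 had differences between the sets of -0.26 (SE 0.60), -0.07 (SE 0.82), -0.27 (SE 0.40) and 0.26 (SE 0.53), with adjusted p of 0.854 to 0.984. The median size of this difference was 0.27 for the members and 0.20 for all probe sets. All 6 members had lower irradiated means in both sets. The members were chosen on the mean of these 2 set differences. That direction, and the overlap of irradiated with control arrays within a set, are therefore partly fixed by the choice. The groups did not overlap in replicates 1 to 3 for 4 members (12.9% of all probe sets in that direction), the exceptions being Cd86 and Mpeg1, and in replicates 4 to 6 for all 6 (14.5%). Among control arrays, the sets did not overlap for Mpeg1, Il18 and Il17re, as for 29.2% of all probe sets, and among irradiated arrays for Cd28 and Gbp2, as for 23.4%.

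**Figure D2:**
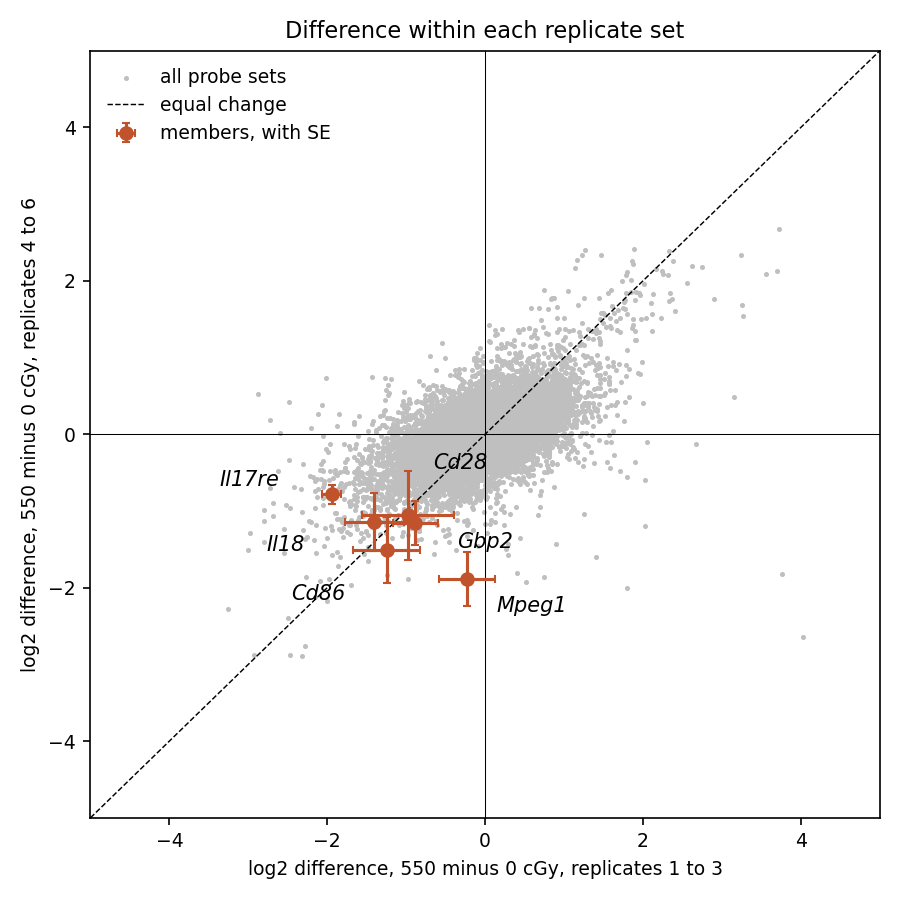
Log2 difference between 550 and 0 cGy in replicates 1 to 3 (x axis) and in replicates 4 to 6 (y axis). Grey points are all 22626 probe sets, orange points the members with their SE, and the dashed line marks equal change. The SE is pooled over groups and sets and is equal in both directions. Il17re lies left of the other members at -1.94 and -0.78 and Mpeg1 below them at -0.23 and -1.88.

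Within the groups the members varied in different ways. Deviations of each array from its group mean, over the 12 arrays, correlated most between Gbp2 and Il18 (Pearson r = 0.63), which were both highest among the irradiated arrays in replicate 3. When deviations were taken from the mean of each group and replicate set, that r was 0.40. Cd86 and Cd28 had r of 0.42 and 0.45 by these measures, and Mpeg1 and Il17re -0.48 and 0.17. These values share arrays and replicate sets and are given as a description.

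The genes with the most similar deviations, among the other 324 named genes, differed from member to member. Each was picked for having the highest r among all of these genes, over a small number of arrays. How high such a top r would be among unrelated genes was not tested. The r values are therefore a description, and shared regulation was not tested. For Cd86 the most similar genes were Hif1a, an oxygen-regulated transcription factor (r = 0.75), Arhgap6 (0.69) and Itgb5, an integrin chain (0.62). The Cd28 probe set was most alike to Bex1 (0.82), Tmem121b (0.72) and Vamp4, a vesicle protein gene (0.70). Mpeg1 varied most like Slfn3, a Schlafen family gene (0.79), Il1rl1, the interleukin-33 receptor gene (0.78), and Orc1, of the origin recognition complex (0.75), all of which were higher in irradiated arrays. Those of Gbp2 were Satb1, a chromatin organizer (0.80), Skp2, of a ubiquitin ligase (0.75), and Egr1, an immediate early transcription factor (0.73). Il18 was followed by Stxbp4 (0.89), Cabyr (0.83) and Tcf7l2, a transcription factor of Wnt signalling (0.80). The highest values were those of Il17re with Gcnt2, a glycosyltransferase gene (0.95), Eya2 (0.95) and Meg3, an imprinted non-coding RNA (0.92). With deviations from group and replicate set means, a measure added after the data were seen, the r of Il17re with these 3 genes was 0.59, 0.24 and 0.54. By the same measure the r of Gbp2 with Satb1, Skp2 and Egr1 was 0.48, 0.28 and 0.36, and that of Mpeg1 with Slfn3, Il1rl1 and Orc1 was 0.51, 0.66 and 0.65. The r of Cd86 with Hif1a, Arhgap6 and Itgb5 was 0.90, 0.77 and 0.75. For Cd28 it was 0.85, 0.74 and 0.78 with Bex1, Tmem121b and Vamp4, and for Il18 it was 0.84, 0.79 and 0.67 with Stxbp4, Cabyr and Tcf7l2.

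**Figure D3:**
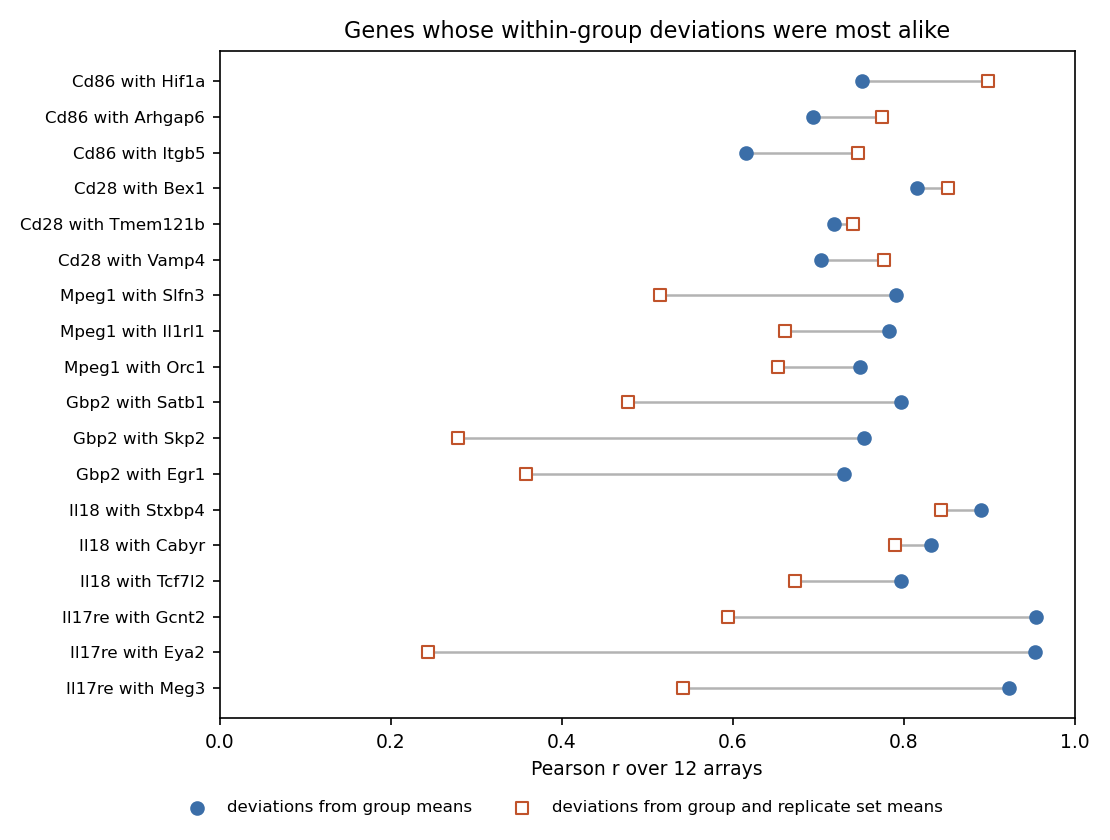
Pearson r over 12 arrays (x axis) between each member and the 3 named genes most alike to it (y axis). Blue points use deviations from the group means and open squares deviations from the group and replicate set means. The squares of Il17re lie at 0.24 to 0.59 and those of Gbp2 at 0.28 to 0.48, left of their blue points, and those of Cd86 and Cd28 lie at 0.74 to 0.90, right of theirs.

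Other genes of the members' pathways were counted in the authors' table, which names only genes it had selected on these arrays. Of its 451 probe sets with values here, 276 were lower and 175 higher. All were selected on this comparison, and the share of its genes called in limma was not counted. Calls and directions in the lists are therefore descriptions and not a result about a pathway. Of 32 costimulation genes, 3 were in the table. Besides Cd86 and Cd28 it held Slamf1, the CD150 gene, which was called higher in its 3 probe sets, by 3.20-fold, 2.52-fold and 2.03-fold. The interleukin-1 and interleukin-18 list had 4 of 31 genes in the table. Il1r1, the signalling receptor of interleukin-1, had means of 8.21 ± 0.32 and 7.16 ± 0.31 (SD, n = 6 per group), and Il1r2, the decoy receptor, was 3.56-fold lower with means of 6.77 ± 0.80 and 4.93 ± 0.56. Il1rl1 was 2.02-fold higher, so this list held 3 lower genes and 1 higher gene.

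The lists for interleukin-17, interferon and pore-forming proteins each held a member. The interleukin-17 list had 3 of 17 genes in the table, all lower, as were 276 of the 451 probe sets of the table. Nfkbiz, a nuclear IkB protein that works downstream of interleukin-17 receptors, was 2.55-fold lower, and Zc3h12a, an RNase that degrades cytokine transcripts, 2.15-fold lower. As in Il17re, their differences were larger in replicates 1 to 3, at -2.13 and -1.77. In replicates 4 to 6 they were -0.58 and -0.43. The share of all probe sets with this order was not counted, so the order is not shown to be particular to these genes. The tests of the difference between sets missed the threshold (limma adjusted p = 0.187 and 0.247). Their spread was unlike that of Il17re, whose SD was 0.64 in control and 0.10 in irradiated arrays. For Nfkbiz and Zc3h12a the SD was 0.38 and 0.35 in control and 0.71 and 0.82 in irradiated arrays. Gbp2 was the only one of 39 interferon response genes in the table and Mpeg1 the only one of 10 pore-forming protein genes. Of 24 pattern recognition receptor genes the table held Tlr7, an endosomal sensor of single-stranded RNA. It was 2.07-fold lower in its brighter probe set, which was not called, and 2.78-fold lower in the other, which was.

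**Figure D4:**
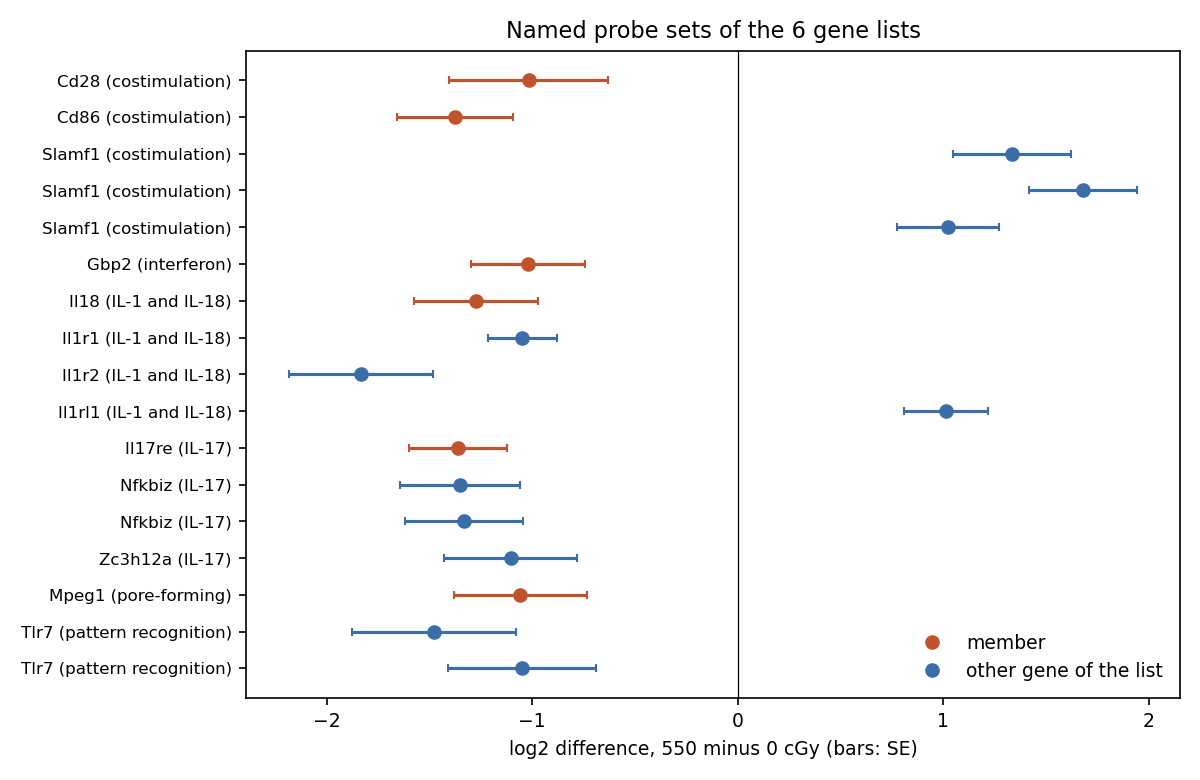
Log2 difference between 550 and 0 cGy (x axis, bars are SE) of each named probe set in the 6 gene lists (y axis, with the list in brackets). Orange points are the members and blue points other genes. Slamf1 and Il1rl1 lie right of 0 and the rest between -1.83 and -1.02.

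Markers of cells that could carry these genes were looked up in the same table. It held 0 of 14 macrophage and monocyte markers, 0 of 16 T and NK cell markers, 0 of 7 B cell markers and 0 of 7 neutrophil markers. Of 15 dendritic cell markers it held Flt3, which is also a receptor of early progenitors and was 4.19-fold lower. Of 6 mast cell and basophil markers, Fcer1a (2.14-fold) and Il1rl1 (2.02-fold) were called higher. Kit and Ly6a, the genes of the sorting markers, had no named probe set, so the sort could not be checked against them. Markers without a name in this table were not analysed here, and the part of other cell types in the members' differences was not tested. Cd86, Cd28, Gbp2 and Il18 were among the dimmest 40% of probe sets by mean over the 12 arrays. The files used here give no detection calls, so whether their lower values lie above background is not known.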

How the data were processed

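Gene expression was measured by array in KSL cells, with 6 arrays at 0 cGy and 6 at 550 cGy. The authors deposited log2 values, 1 for each probe set and array. The submitters' processing notes name Partek without a role. How background was corrected and arrays were normalized is not stated in the labels or file headers. A second table, per the file headers, holds the authors' unadjusted p-values, linear ratios and signed folds for 454 changed probe sets, with the F statistics and sums of squares (scores) of their analysis of variance. The log2 ratios recomputed for the members differed from theirs by at most 3.62e-06. Only this table names genes: 436 probe sets name 1 gene, 425 matched RefSeq (GRCm38.p6) by gene ID, and 21 symbols changed. Where a gene has several probe sets, the brightest stands for it in counts.

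A limma 3.58.1 fit (lmFit, eBayes) in R 4.3.3 covered all 22626 probe sets and 12 arrays with no filter, with Benjamini-Hochberg adjustment over all probe sets and a threshold of 0.05. The difference between replicate sets was a contrast of 4 means, each of 3 arrays. The fits were also run on simulated data with independent noise and no general difference between the replicate sets. That run does not show how the fits behave where such a difference exists. No 2 arrays were identical, the smallest SD of a difference between them being 0.28. Alternatives were a filter on dim probe sets, quantile normalization, median subtraction, array weights, a trended and robust prior, the replicate number as a block, the replicate set as a term or alone, an analysis of variance and leaving out each array. The rule for named genes was the members, members of the pathway and marker lists that the table names, and the 3 genes most alike to each member. Members and lists were chosen with earlier results of these data known. Figures used matplotlib 3.10.9.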

Additional observations from a re-analysis of the deposited data

Results flagged for a closer look

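Between the replicate sets, which were noticed in these same arrays, the change of Il17re differed by 1.16 (limma adjusted p = 0.0354). It was -1.94 in the set of replicates 1 to 3 and -0.78 in the other set. Eya2 differed by 1.63, with changes of -2.09 and -0.47. It was named for its likeness to Il17re in deviations that contain the difference between the sets, so this is a description and not a second test. Among 72 sets of 6 arrays examined for the members and other named genes, 2 held an array far from the rest. Distance was judged by the gap to the next array as a share of the range. Chance gives about 1 in 20 sets, and 2 of 72 does not exceed that rate. Irradiated replicate 1 of Il1rl1 was at 8.27, above the others at 7.18 to 7.49. For the brighter Tlr7 probe set, irradiated replicate 3 was at 6.85 and the others at 5.74 to 6.15. No explanation of these values was tested.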

How the results depend on the processing

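All 6 members had lower means in irradiated arrays under every alternative that kept their probe set. The number called lower, 4 as reported, ranged from 1 to 6. It was 2 without the dimmest 40% of probe sets, which left only Mpeg1 and Il17re to test, 2 by analysis of variance and 1 in replicates 1 to 3 alone. It was 6 with array weights and 5 with the trended and robust prior, with the replicate set as a term and in replicates 4 to 6 alone. Leaving out 1 array gave 3 to 5, and the other settings gave 4. Over all probe sets, the calls higher and lower numbered 862 and 804 by analysis of variance, 539 and 601 in replicates 1 to 3 alone, and 720 and 738 in replicates 4 to 6 alone. The higher calls were 2099 with the replicate set as a term. Leaving out 1 array gave 740 to 1531 higher and 773 to 1303 lower. Same-numbered arrays of the 2 groups correlated in their deviations from the group means with r of 0.01 for replicate 1 and 0.12 to 0.29 for replicates 2 to 6. Taken from the group and replicate set means, these r were -0.03 to 0.0057. By deviations from the group means alone, only irradiated replicates 3 and 6 were the best match of the control array of their own number. The numbers were therefore not treated as pairs. The replicate block gave 1451 higher and 1350 lower calls and 4 members.

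The 30 probe sets whose change differed between the replicate sets were 96 with a trended and robust prior, 47 with array weights and 4 to 129 without 1 array. The Il17re difference had an adjusted p of 0.0503 under that prior and of 0.0260 to 0.115 over all alternatives. When 1 array was left out, the uncalled differences changed sign, spanning -0.58 to 0.29 for Cd86, -0.97 to 0.39 for Cd28, -0.54 to 0.0064 for Gbp2 and -0.23 to 0.64 for Il18, and the cause was not tested. For Mpeg1 they spanned -2.04 to -1.42.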
